A study of Mus musculus with 4 samples.

Results

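The 10 genes described here mark the kinds of endothelial cell that line lung vessels, followed across the libraries of an IL-33 transgenic mouse study. They were Pecam1 for all endothelium, Car4, Ednrb and Apln for one class of alveolar capillary cell, Aplnr, Gpihbp1 and Plvap for the other class, Vwf for larger vessels, Gja5 for arteries and Lyve1 for lymphatics. Members were chosen by gene name, and each of the 10 matched 1 row of the 43346 genes in the deposited table. All 10 were among the 20872 genes that passed the filter on low counts, the lowest member count being 2885 reads for Gpihbp1 in library B.

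The alveolar wall carries a capillary net built from 2 endothelial classes. Aerocytes are large, thin cells across which gas is exchanged, and they express Car4, Ednrb and the peptide ligand gene Apln. General capillary cells express the apelin receptor gene Aplnr, tether lipoprotein lipase through GPIHBP1 and act as a source of new capillary cells after injury. Arteries couple their endothelium through gap junctions, veins and large vessels store von Willebrand factor, and lymphatics take up fluid and leukocytes from the tissue.

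Polyadenylated RNA was sequenced from material labelled lung epithelial cells, while the series title speaks of lung tissue. The groups were 2 libraries of transgenic mice with IL-33 over-expression (B and E, numbered transgenic replicates 1 and 2) and 2 libraries of control mice (D and F, numbered control replicates 1 and 2). The strain, age and sex of the mice, the promoter of the transgene, the genotype detail of the controls and the number of mice in a library are not stated in those labels, so the p-values describe only how far these libraries spread, which may be technical. The comparison of interest is transgenic against control.

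The gene counts summed to between 76120696 (B) and 87723745 (E) reads, and Il33 stood at 1723 (B) and 874 (E) with 117 (D) and 108 (F) in controls, in counts per 1000000 (CPM), in the direction of the labels. Libraries E and F lay closest together, with a root mean square difference of 0.19 in log2 CPM over all genes tested, and B lay 0.32 from D, 0.38 from E and 0.39 from F. Library D lay 0.32 from E and 0.31 from F, so over all genes it was no nearer to B than to E or F. Summed CPM of 4 Y-linked genes, as a percentage of D, reached 0.554% (B), 9.0% (E) and 47.5% (F). The libraries may thus differ in the sex of their mice, which is not stated, and genotype and sex cannot be fully told apart. The label of epithelial cells was met in part: Sftpc, the surfactant gene of alveolar type 2 cells, took 2.0% to 3.61% of all counts, while 22 other pan-endothelial genes took 0.632% to 1.09% and the 10 members 0.264% to 0.463%. All 22 of those pan-endothelial genes passed the filter, and each had at least 2045 reads in every library (the lowest being Tal1 in B), so endothelial RNA was present in every library.

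All 10 members had a lower fitted level in transgenic than in control libraries, and none passed the test. The log2 fold changes ran from -0.40 (Apln) to -0.17 (Pecam1) with a median of -0.28, where the median over all 20872 genes was -0.0013 and 50.4% of genes lay below 0. With edgeR's quasi-likelihood test the adjusted p was 1 for all 10 members and the unadjusted p ran from 0.133 (Lyve1) to 0.636 (Vwf). The same test called 0.00% of all genes lower and 0.00% higher at an adjusted p of 0.05, and 0.393% lower and 0.896% higher at an unadjusted p under 0.05. DESeq2 called 0.00479% of all genes (Il33 alone) and limma-voom 0.00%, with no member among them. Without library B the median of the members was -0.005, and Pecam1, Gpihbp1, Plvap and Vwf lay above 0, while without E the median was -0.65. With the Y-linked share as covariate all 10 lay below 0 with a median of -0.53, from -1.03 (SE 0.79) for Vwf to -0.065 (SE 0.50) for Aplnr, and none passed the test (adjusted p = 1, edgeR). Library B was the lowest of the 4 for all 10 members, a position it held for 33.9% of all genes. The members shared this low point, so counts of members set beside a share of all genes are not counts of independent results. The transgenic and control libraries overlapped for 8 members and lay apart for 2, Gja5 and Lyve1, both lower in transgenic libraries, where 12.0% of all genes had both transgenic libraries below both controls. With 1 library left out, the members lower without overlap numbered 10 without E (against 38.6% of all genes), 9 without D (31.8%), 3 without F (27.1%) and 2 without B (28.0%). In whole-tissue or mixed-cell RNA such as this, fewer cells of a type and less RNA per cell cannot be told apart.

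**Figure D1:**
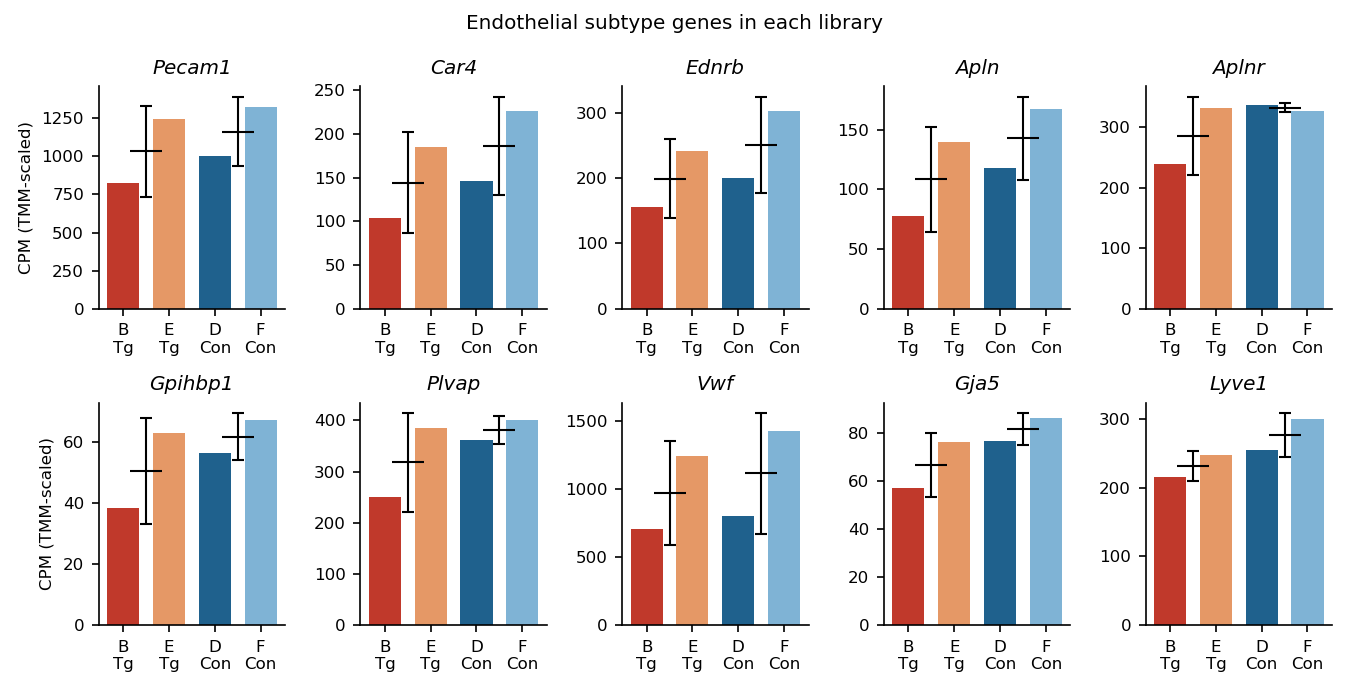
CPM (counts per 1000000 on TMM-scaled library sizes) of the 10 members in transgenic libraries B and E and control libraries D and F. Bars are single libraries, and the horizontal marks with whiskers give the group mean ± SD (n = 2). Library B is the lowest bar in every panel, and E lies above D for Pecam1, Car4, Ednrb, Apln, Gpihbp1, Plvap and Vwf.

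On the length-corrected scale the pan-endothelial gene and the fenestral diaphragm gene led. Mean deposited RPKM, reads per kilobase per 1000000 reads, was 144.5 for Pecam1 (range over libraries 106.5 to 176) and 142 for Plvap (99.7 to 164.5). Lyve1 followed at 79.7 (66.6 to 95.0), Car4 at 68.9 (42.4 to 95.0), Aplnr at 68.1 (52.0 to 74.5) and Vwf at 53.2 (35.2 to 73.5). The lower levels were those of Ednrb at 45.6 (31.1 to 62.0), Apln at 32.6 (19.7 to 43.9), Gja5 at 19.1 (14.5 to 22.5) and Gpihbp1 at 17.9 (12.0 to 21.7). The ranges of all neighbours in this order overlapped except those of Plvap and Lyve1. Within every single library, Vwf also stood above Ednrb, Ednrb above Apln and Apln above Gja5. The order of the remaining neighbours differed between libraries.

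Pecam1 encodes CD31, an adhesion molecule at endothelial junctions that platelets and leukocytes also carry. Pecam1 (ENSMUSG00000020717, chromosome 11, 106654217 to 106750628, GRCm38) measured 1001 CPM in control D and 1327 CPM in control F, with 824 CPM in transgenic B and 1247 CPM in transgenic E. The transgenic libraries thus bracketed control library D, and E and F were both above B and D. The group means were 1036 ± 299 CPM (transgenic) and 1164 ± 230 CPM (control, SD, n = 2 each), a log2 fold change of -0.17 (SE 0.27). Without library B it was 0.10 and without control library F 0.05, so its direction rested on those libraries.

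The aerocyte genes Car4, Ednrb and Apln had the 3 most negative log2 fold changes of the members. Car4 encodes carbonic anhydrase 4, a membrane enzyme that interconverts carbon dioxide and bicarbonate on the capillary surface. Car4 (ENSMUSG00000000805, chromosome 11, 84957786 to 84966044) measured 147 CPM in control D, 226 CPM in control F, 104 CPM in transgenic B and 185 CPM in transgenic E. Library F held 2.18 times the level of B, the widest span of any member, and E lay above D. The group means were 144 ± 57.4 CPM and 186 ± 56.3 CPM (SD, n = 2 each), a log2 fold change of -0.37 (SE 0.34).

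Ednrb encodes the endothelin B receptor, which clears endothelin-1 and prompts endothelial release of nitric oxide. Ednrb (ENSMUSG00000022122, chromosome 14, 103814625 to 103844173) measured 199 CPM in control D, 303 CPM in control F, 156 CPM in transgenic B and 241 CPM in transgenic E. The order of libraries was that of Car4, with a log2 fold change of -0.34 (SE 0.29). Edn1, the gene of its ligand endothelin-1, had a log2 fold change of -0.14 (SE 0.31), and was named after its values were seen. Apln encodes the secreted precursor of apelin. Apln (ENSMUSG00000037010, X chromosome, 48025146 to 48034853) measured 118 CPM in control D, 167 CPM in control F, 77.1 CPM in transgenic B and 139 CPM in transgenic E, a log2 fold change of -0.40 (SE 0.33). Again B was lowest, F highest and the groups overlapped through E and D. Without library B the log2 fold changes of Car4, Ednrb and Apln shrank to -0.01, -0.05 and -0.03. Car4 and Apln had the most alike profiles of any 2 members: their log2 CPM, centred over the 4 libraries, differed by a root mean square of 0.05.

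The upstream sequences of the 3 aerocyte genes, which had the most negative log2 fold changes of the members, are shown. Each is the 250 bases before the RefSeq transcription start (GRCm38.p6), 5′ to 3′ on the gene's strand, with capitals marking GGAAG or its complement, the core bound by ETS factors, which act throughout endothelium. Car4 lies on the + strand (chr11:84957504-84957753), Ednrb on the - strand (chr14:103843702-103843951, inside the gene span of the deposited table) and Apln on the - strand (chrX:48034854-48035103).
Car4: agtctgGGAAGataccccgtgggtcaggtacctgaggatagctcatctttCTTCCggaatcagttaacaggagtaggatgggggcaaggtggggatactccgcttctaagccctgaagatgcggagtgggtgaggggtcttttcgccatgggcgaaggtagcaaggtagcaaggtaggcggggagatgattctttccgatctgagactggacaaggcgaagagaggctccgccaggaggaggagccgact
Ednrb: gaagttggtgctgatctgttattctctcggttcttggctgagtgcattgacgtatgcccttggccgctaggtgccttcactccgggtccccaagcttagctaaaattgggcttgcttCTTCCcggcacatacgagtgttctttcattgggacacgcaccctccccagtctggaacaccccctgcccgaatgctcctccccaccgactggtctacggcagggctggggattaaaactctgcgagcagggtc
Apln: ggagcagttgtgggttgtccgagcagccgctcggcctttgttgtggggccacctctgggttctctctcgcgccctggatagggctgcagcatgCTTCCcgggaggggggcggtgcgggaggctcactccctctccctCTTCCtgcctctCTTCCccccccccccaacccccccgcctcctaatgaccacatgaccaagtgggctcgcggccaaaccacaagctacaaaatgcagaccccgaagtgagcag
GGAAG was found on either strand 2 times for Car4, 1 time for Ednrb and 3 times for Apln, and 1 time for the arterial gene Gja5. Of 32851 upstream windows of the same length, 64.1% held it, so its presence here is common. None of the 4 windows held AACAGGAA, a composite of FOX and ETS motifs that 2.25% of all windows held. None held GATAAG, read by GATA factors and held by 6.55%, or TGANTCA, read by AP-1 and held by 6.75%. None held TATAAA, the core of the TATA box, which was in 12.4% of windows, all searched on both strands. RefSeq windows for Pecam1, Aplnr, Gpihbp1, Plvap, Vwf and Lyve1 were not available, so the choice was limited to these 4 members.

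The general capillary genes Aplnr, Gpihbp1 and Plvap were lowest in library B and closer together across the other libraries. Aplnr encodes the G protein-coupled receptor of apelin. Aplnr (ENSMUSG00000044338, chromosome 2, 85136225 to 85139923) stood at 239 (B) and 331 (E) CPM in transgenic libraries, against 337 (D) and 326 (F) CPM in controls. The 3 libraries other than B lay between 326 and 337 CPM, and E was above F, the one case among the 10 members. The control libraries had a mean of 332 ± 7.43 CPM and the transgenic libraries 285 ± 65.1 CPM (SD, n = 2 each), with a log2 fold change of -0.22 (SE 0.19). Apela, which encodes a second ligand of this receptor and was named after its values were seen, had 24 to 43 reads per library.

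Gpihbp1 encodes the anchor that carries lipoprotein lipase to the capillary lumen. Gpihbp1 (ENSMUSG00000022579, chromosome 15, 75596628 to 75599481) measured 56.2 CPM in control D, 67.1 CPM in control F, 38.2 CPM in transgenic B and 62.6 CPM in transgenic E, a log2 fold change of -0.29 (SE 0.25). Lpl, the gene of the lipase itself, had a log2 fold change of 0.31 (SE 0.34, unadjusted p = 0.397, edgeR), with 48.9 (B), 79.4 (E), 38.5 (D) and 65.0 (F) CPM. Lpl was thus higher in B than in D and in E than in F, the reverse of Gpihbp1. Plvap encodes the protein of the diaphragms that span endothelial fenestrae and caveolae. Plvap (ENSMUSG00000034845, chromosome 8, 71497754 to 71511769) measured 362 CPM in control D, 401 CPM in control F, 250 CPM in transgenic B and 386 CPM in transgenic E, a log2 fold change of -0.26 (SE 0.23). It overlaps Gtpbp3 on the opposite strand over 1830 bases, and since the strand setting of the counting is not known from the labels, reads there may be shared. Gtpbp3 had at most 1710 reads in a library, against 18868 or more for Plvap. Without library B the log2 fold changes of Gpihbp1 and Plvap were 0.02 for each, so their direction rested on that library.

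Vwf had the widest gap between libraries B and D and libraries E and F. It encodes von Willebrand factor, the multimeric protein that captures platelets and is stored in endothelial granules and in platelets. Vwf (ENSMUSG00000001930, chromosome 6, 125546774 to 125686679) measured 801 CPM in control D, 1429 CPM in control F, 703 CPM in transgenic B and 1241 CPM in transgenic E. Transgenic library E was 1.55 times control library D, and the group means of 972 ± 380 CPM and 1115 ± 444 CPM (SD, n = 2 each) differed by far less than the spread within groups (log2 fold change -0.20, SE 0.39). Its direction turned without library B (0.16) and without control library F (0.28). Platelet markers followed the same order: the summed CPM of 10 platelet genes, all detected in every library, was 24.9 (B), 72.4 (E), 32.4 (D) and 77.3 (F). That is a transgenic range of 24.9 to 72.4 and a control range of 32.4 to 77.3, led by Itga2b (7.5 to 23.2 CPM) and Ppbp (2.91 to 14.5 CPM), and the part of platelets in the Vwf values was not tested.

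The arterial gene Gja5 and the lymphatic gene Lyve1 were the members whose groups did not overlap. Gja5 encodes connexin 40, the gap junction protein of arterial endothelium and of atrial muscle. Gja5 (ENSMUSG00000057123, chromosome 3, 97032416 to 97053634) measured 76.9 CPM in control D and 86.4 CPM in control F, with 57.2 CPM in transgenic B and 76.1 CPM in transgenic E. Transgenic E and control D differed by less than 1 CPM, so the groups were only just apart. The group means were 66.7 ± 13.4 CPM and 81.6 ± 6.72 CPM (SD, n = 2 each), a log2 fold change of -0.29 (SE 0.17, unadjusted p = 0.14, edgeR). The summed CPM of 8 heart muscle genes was 67.5 (B), 80.4 (E), 76.1 (D) and 89.4 (F). That is the order of Car4 and not that of Gja5, in which E was below D, but the sum rests mainly on its most abundant genes. The part of heart muscle in the Gja5 values was not tested. All 8 were detected in at least 1 library, led by Actc1 (32.2 to 56.6 CPM) and Myh6 (24.1 to 30.3 CPM). These leading genes did not move together. Actc1 was lowest in B and highest in F, while Myh6 was 30.3 (B), 26.8 (E), 26.3 (D) and 24.1 (F) CPM. The scarcer genes were mixed. Myl7 was 0.106 (B), 0.722 (E), 0.943 (D) and 0.857 (F) CPM. Myl4 was 1.39 (B), 3.88 (E), 4.06 (D) and 3.49 (F) CPM. Both had B lowest and E below D, as Gja5 did, but D and not F highest. Tnnt2, Nppa and Sln did not have E below D, and Tnni3 was lowest in E.

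Lyve1 encodes a hyaluronan receptor of lymphatic endothelium that some tissue macrophages also carry. Lyve1 (ENSMUSG00000030787, chromosome 7, 110850607 to 110862953) measured 255 CPM in control D and 299.7 CPM in control F, with 216 CPM in transgenic B and 248 CPM in transgenic E. Its libraries were the closest together of any member, the highest being 1.39 times the lowest. The group means were 232 ± 22.5 CPM and 277 ± 31.6 CPM (SD, n = 2 each), a log2 fold change of -0.26 (SE 0.14, unadjusted p = 0.133, edgeR), and it stayed below 0 with any 1 library left out (-0.37 to -0.14). The summed CPM of 10 macrophage markers did not follow it, at 32.3 and 70.7 in transgenic and 20.9 and 44.0 in control libraries. Mrc1 (9.05 to 38.0 CPM) and Cd68 (4.54 to 9.61 CPM) were the most abundant. Of the markers shared with Lyve1-positive macrophages, Folr2 was at 0.397 to 0.446 CPM and Cd163 at 0.119 to 0.372 CPM. Folr2, with 30 to 38 reads per library, had the same order of libraries as Lyve1, while Cd163 did not. The part of macrophages in the Lyve1 values was not tested.

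Most members also separated libraries B and D from E and F. Both B and D lay below both E and F for 7 of 10 members, against 27.3% of all genes, and those 7 had the full order B, D, E, F from lowest to highest, against 12.2% of all genes. B was below D and E below F for 9 of 10 members, all but Aplnr, against 28.6% of all genes. B was 12.2% (Vwf) to 34.5% (Apln) below D, and E was 3.77% (Plvap) to 20.4% (Ednrb) below F in those 9. With a term separating B and D from E and F added to the edgeR model, which leaves 1 residual degree of freedom, the log2 fold changes were -0.44 (SE 0.10) for Apln, -0.39 (SE 0.08) for Car4 and -0.34 (SE 0.07) for Ednrb. In that fit 6 of 10 members had an unadjusted p under 0.05, against 3.17% of all genes lower at that p. These were Car4, Ednrb, Apln, Gpihbp1, Gja5 and Lyve1. No member passed the adjusted test (adjusted p from 0.76 to 0.835). The members are not independent of each other, so these 6 are not separate results. The labels give no batch or day, so what sets these libraries apart is not known from them, and the term was chosen with earlier results of these data known.

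**Figure D2:**
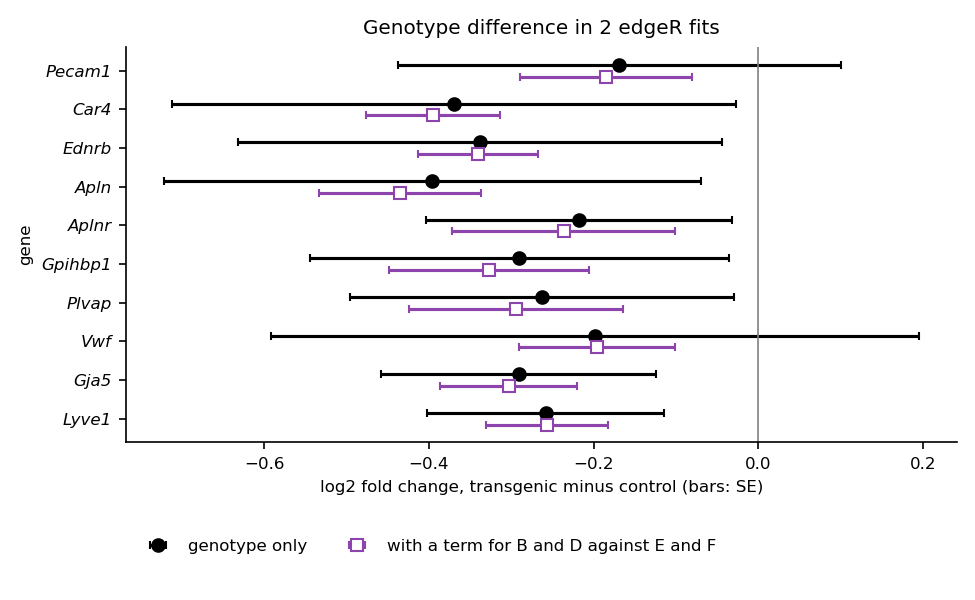
Log2 fold change of each member, transgenic minus control, in the edgeR fit with genotype only (black circles) and in the fit with a term separating libraries B and D from E and F (open squares). Bars are ± 1 SE. The points hardly move between fits, from -0.17 to -0.19 for Pecam1 and from -0.40 to -0.44 for Apln. The bars of the second fit are shorter for all 10. Each side of the term holds 1 transgenic and 1 control library, so it could move the points only little. The term was chosen with earlier results of these data known, so the shorter bars are no independent gain in precision.

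Relative to Pecam1 in the same library, the members' ratios spanned 1.19-fold (Plvap) to 1.37-fold (Aplnr) between libraries, and 3 capillary genes were lower in both transgenic libraries. Such ratios carry no scaling factor, but 2 libraries against 2 cannot give an exact two-sided permutation p below 0.333. Apln was 9.36% of Pecam1 counts in B and 11.2% in E, against 11.8% in D and 12.6% in F. Ednrb was 18.9% (B) and 19.3% (E), against 19.9% (D) and 22.8% (F). Gpihbp1 was 4.63% (B) and 5.02% (E), against 5.62% (D) and 5.06% (F). In these 3 of 9 members both transgenic libraries lay below both controls, against 4.20% of all genes taken relative to Pecam1. No member lay above both controls, as 8.48% of all genes did. Pecam1 was itself lowest in B, which raises genes that did not fall there. Without the ratio, 12.0% of all genes were lower in both transgenic libraries. The 4.20% is thus not a like comparison for endothelial genes, and no share over other endothelial genes is given here. The separation was narrow, and the nearest libraries of the groups differed by little (5.02% and 5.06% for Gpihbp1). Car4 overlapped, at 12.6% (B), 14.8% (E), 14.6% (D) and 17.1% (F).

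The other members overlapped between groups relative to Pecam1, and all of them but Plvap set B and D apart from E and F. Vwf was 85.3% of Pecam1 counts in B and 80.0% in D, but 99.5% in E and 108% in F. Lyve1 ran the other way, at 26.2% in B and 25.5% in D but 19.9% in E and 22.6% in F, as did Gja5 at 6.94% and 7.67% against 6.1% and 6.51%. Aplnr was 29.0% (B), 26.6% (E), 33.6% (D) and 24.6% (F), and Plvap was 30.3% (B), 31.0% (E), 36.1% (D) and 30.2% (F). Apln alone of the 10 members was lower in both transgenic libraries when measured instead against the summed counts of the 22 other pan-endothelial genes. Pecam1 alone was higher. Of all genes so measured, 3.07% were lower and 9.99% higher. The pan-endothelial sum was also lowest in B, so these shares are not a like comparison either. In an edgeR fit scaled to that sum the members' log2 fold changes ran from -0.19 (Apln) to 0.06 (Pecam1), with a median over all genes of 0.26.

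**Figure D3:**
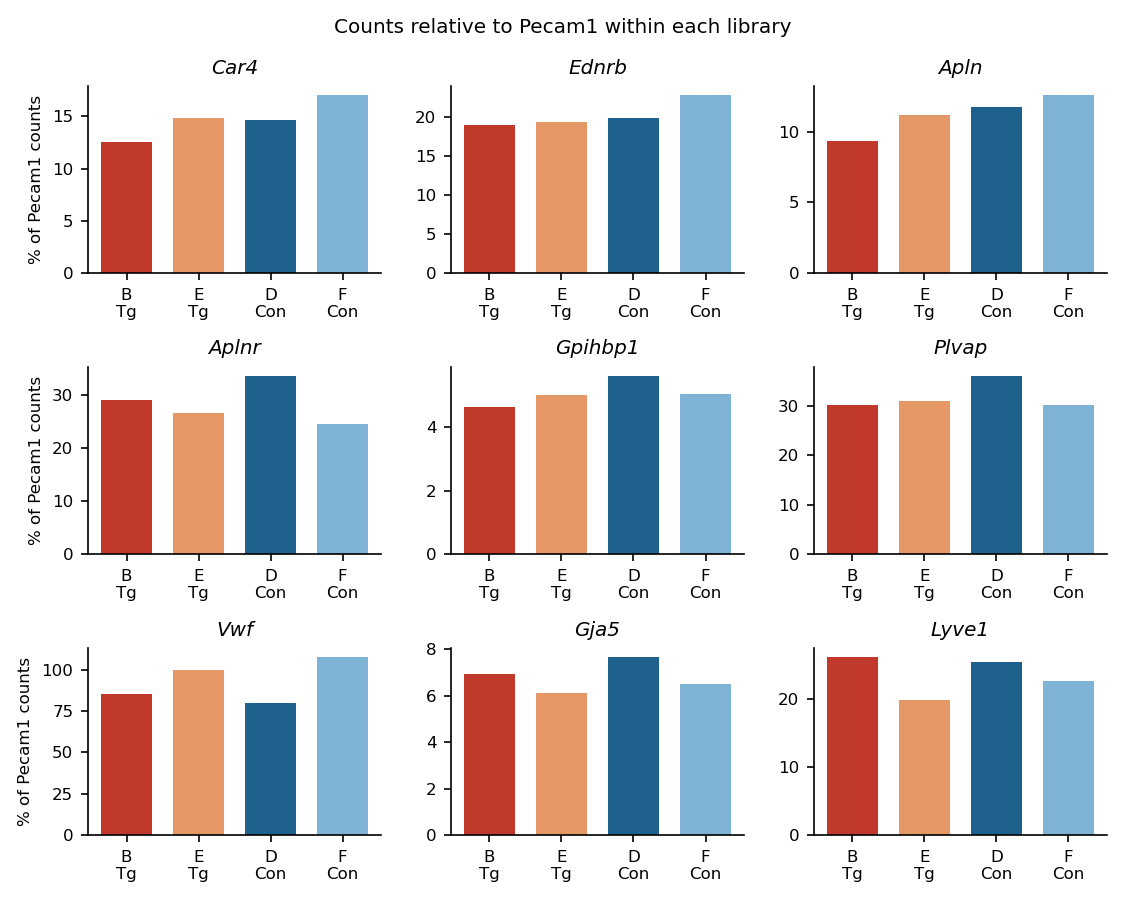
Counts of 9 members as a percentage of Pecam1 counts in the same library (axes start at 0, single libraries, no error bars). Apln is lowest in B at 9.36% and highest in F at 12.6%, while Vwf separates B and D (85.3% and 80.0%) from E and F (99.5% and 108%).

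The balance between the capillary classes also differed between libraries. The ratio of aerocyte counts (Car4, Ednrb and Apln) to general capillary counts (Aplnr, Gpihbp1 and Plvap) was 0.639 (B), 0.725 (E), 0.614 (D) and 0.876 (F). By these member genes E and F thus had more aerocyte reads per general capillary read than B and D, and both transgenic libraries lay between the controls. The sums of the longer lists of other genes went the other way, with fewer aerocyte reads per general capillary read in E and F. Other aerocyte genes summed to 2730 (B), 3348 (E), 3156 (D) and 3809 (F) CPM. Much of that sum came from Emp2, at 957 (B), 1019 (E), 1082 (D) and 1184 (F) CPM, which alveolar type 1 cells also make. Icam1 ran against the members, at 524 (B), 341 (E), 423 (D) and 388 (F) CPM. The order B, D, E, F was held by 9 of the 12 genes. Whether the sums differ without Emp2 and Icam1 was not tested. Other general capillary genes summed to 6596 (B), 9752 (E), 7602 (D) and 9792 (F) CPM. The ligand to receptor ratio of Apln to Aplnr counts was 0.322 (B), 0.421 (E), 0.349 (D) and 0.512 (F). The ratio of Apln to Car4, both aerocyte genes, stayed between 0.74 and 0.803 in all libraries. The most unlike members by centred log2 CPM were Aplnr and Vwf, with a root mean square difference of 0.34.

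Other genes of the same vessel types mostly lay below 0 as well, without passing the test. Over 6 lists of other endothelial genes, 87 were tested, 77 had a log2 fold change below 0 and 10 above (median -0.22), and 0 passed the adjusted test by edgeR, with 3 lower at an unadjusted p under 0.05. Both transgenic libraries were below both controls for 13 of the 87 (14.9%, against 12.0% of all genes), and B was lowest for 73 (83.9%). Most of these genes shared that low point, so they are not independent of each other. All 22 pan-endothelial genes lay below 0 (median -0.25), with B lowest for all 22 and 1 not overlapping. Their most abundant gene, Cdh5, which encodes VE-cadherin, stood at 1115 (B), 1851 (E), 1350 (D) and 1916 (F) CPM. The smallest p-values were those of Egfl7, an angiogenic matrix factor (log2 fold change -0.33, SE 0.21), Cldn5, the endothelial tight junction claudin (-0.40, SE 0.26), and Erg, an ETS transcription factor (-0.32, SE 0.22).

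Among the capillary lists, 10 of 12 other aerocyte genes (median -0.29) and 12 of 15 other general capillary genes (median -0.095) lay below 0. In each list 1 gene was lower in transgenic libraries without overlap, against 12.0% of all genes. Emp2, a membrane protein that alveolar type 1 cells also make, stood at 957 (B) and 1019 (E) against 1082 (D) and 1184 (F) CPM. Cyp4b1 gave a log2 fold change of -0.25 (SE 0.20) and Rprml one of -0.55 (SE 0.38). In the general capillary list Gpr182, an atypical chemokine receptor, was the gene that did not overlap, at 29.8 (B) and 37.6 (E) against 38.6 (D) and 41.0 (F) CPM. Its most abundant gene, the sodium channel relative Scn7a, had a log2 fold change of -0.095 (SE 0.28), and Tmem100 one of -0.23 (SE 0.33).

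In the arterial list 13 of 14 genes lay below 0 (median -0.21). Dll4, the Notch ligand of arterial and sprouting endothelium, was the 1 that did not overlap, at 90.5 (B) and 117 (E) against 142 (D) and 140 (F) CPM (log2 fold change -0.44, SE 0.15, unadjusted p = 0.0325, adjusted p = 1, edgeR). The chemokine gene Cxcl12 was the most abundant and had a log2 fold change of -0.05 (SE 0.33). The list also held Dkk2 (-0.33, SE 0.23) and Nebl (0.19, SE 0.15). In the venous list 9 of 12 genes lay below 0 (median -0.15). Without overlap, 3 of the 12 were lower and 2 higher, against 12.0% and 11.9% of all genes. Vcam1 and Sele, adhesion molecules for leukocytes, gave -0.46 (SE 0.21) and -0.34 (SE 0.21) on the log2 scale, and Car8 had a log2 fold change of 0.25 (SE 0.16). Ephb4, the venous receptor of ephrin B2, was the most abundant at 247 to 337 CPM.

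In the lymphatic list, 11 of 12 genes lay below 0 (median -0.31), and 6 of 12 had both transgenic libraries under both controls, against 12.0% of all genes. Ccl21a, the chemokine that draws dendritic cells and T cells into lymphatics, stood at 3.0 (B) and 3.13 (E) against 5.14 (D) and 4.44 (F) CPM (log2 fold change -0.64, SE 0.19, unadjusted p = 0.0198, adjusted p = 1, edgeR). Reads of Ccl21a may be shared with its near-identical paralogs. Fxyd6 stood at 4.39 and 4.54 against 6.51 and 5.86 CPM (unadjusted p = 0.0397, edgeR), and Mmrn1 at 20.4 and 22.0 against 24.3 and 25.8 CPM. Flt4, the receptor of VEGF-C and the most abundant of the list, overlapped, at 81.4 and 122 against 114 and 137 CPM. Most of these genes were scarce, and 0 passed the adjusted test.

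The partners of the members were mixed. Of 17 ligands, receptors and enzymes that act with them, 11 lay below 0 and 6 above (median -0.09). Without overlap, 1 was lower and 1 higher, against 12.0% and 11.9% of all genes. Cd44, a hyaluronan receptor of many cell types, was the higher one, at 181 (B) and 191 (E) against 141 (D) and 164 (F) CPM (log2 fold change 0.28, SE 0.12, unadjusted p = 0.0677, edgeR). Has2, a hyaluronan synthase gene, was the lower one, at 2.41 and 4.04 against 4.31 and 4.59 CPM. Ece1, the enzyme that activates endothelin, had a log2 fold change of -0.14 (SE 0.21), and F8, the clotting factor carried by von Willebrand factor, one of 0.25 (SE 0.24).

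Markers of other cell types also varied across the libraries. The summed CPM of 10 smooth muscle and pericyte genes was 873 and 1522 in transgenic and 1085 and 1735 in control libraries, and that of 10 fibroblast genes 1262 and 2530 against 1979 and 2877, both in the order B, D, E, F. Alveolar type 2 genes ran in the reverse order, at 60555 (B), 49968 (D), 39797 (E) and 36256 (F). Airway epithelial genes were highest in B (12331) and between 7931 and 10382 in the others, and alveolar type 1 genes were 4401 and 3441 against 4717 and 3334. Mesothelial genes summed to 269 and 150 against 306 and 139. Leukocyte genes alone did not overlap between the groups, at 68.9 and 107.7 in transgenic and 34.1 and 62.0 in control libraries, led by Ptprc and Laptm5. Red cell genes were 25.7 and 14.0 against 52.9 and 18.1. All genes of these lists had reads in at least 1 library except Ahsp, which was not matched, and the part of other cell types in the members' values was not tested.

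**Figure D4:**
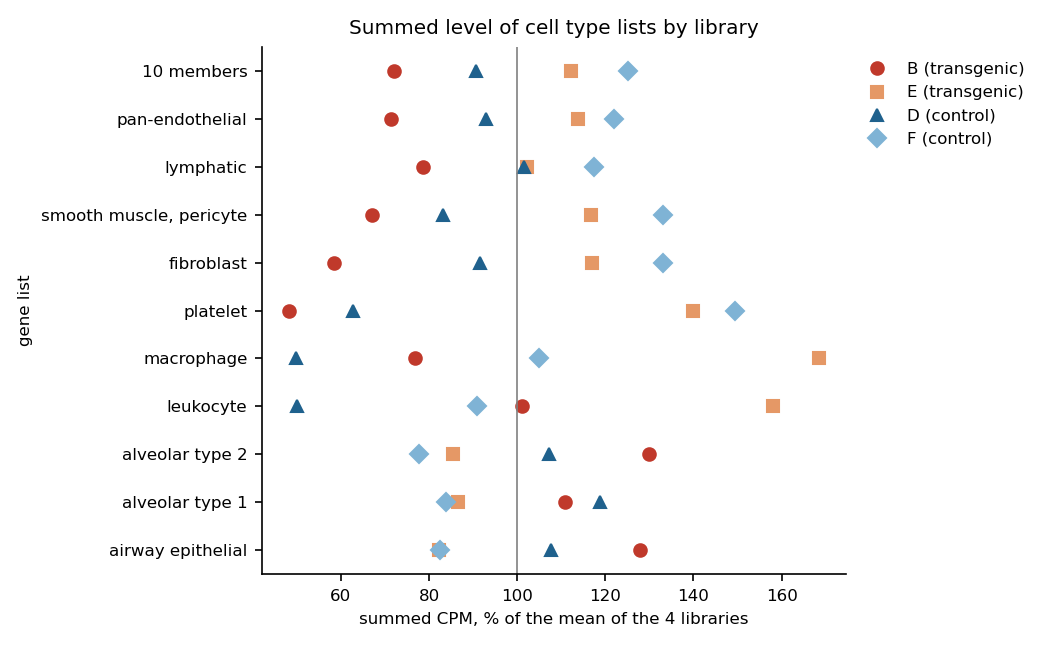
Summed CPM of the 10 members and of 10 other gene lists in each library, as a percentage of the mean of the 4 libraries for that list (points are single libraries). The members run from 72.0% in B to 125% in F, alveolar type 2 genes run the other way from 130% in B to 77.7% in F, and leukocyte genes are highest in E at 158%.

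Genes were then ranked by how closely their profile over the 4 libraries matched that of a member. By root mean square difference of centred log2 CPM, among 10680 genes averaging at least 10 CPM, those nearest Pecam1 were Qsox1 (0.0063), Hilpda (0.0083), Itga4 (0.014), Chst11 (0.014) and Mboat2 (0.016). Nearest Car4 was Mgp, the matrix Gla protein gene of vessels and cartilage (0.009). Nearest Ednrb were Aoc3 (0.022), Myl9 (0.026) and Acta2 (0.035), the last 2 contractile genes of smooth muscle. Nearest Vwf was Actg2 (0.032), another smooth muscle gene, and nearest Lyve1 was Vav3 (0.014). Over 4 libraries these are descriptions only.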

How the data were processed

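Polyadenylated RNA of 4 mouse lung libraries was analysed. Reads were handled with TopHat2 (version 2), Bowtie (version 1) and featureCounts (version 1) on mm10 (GRCm38), per the submitters' processing notes. The annotation release, strand setting and treatment of multiply matching reads are not stated there. The authors deposited whole-number counts of reads per gene, not normalized, and RPKM values per kilobase of the table's length. Gene counts made up 80.3% to 82.7% of the totals the deposited RPKM were scaled to. RPKM served only for levels between genes.

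Of 43346 identifiers, 42462 matched GENCODE M21 names. The filterByExpr step (10 reads per library, 15 in total) kept 20872 genes, and TMM set the scaling. Transgenic and control libraries (2 each, replicates numbered in accession order) were compared with edgeR 4.0.16 (R 4.3.3, quasi-likelihood test, legacy setting, no covariate), with Benjamini-Hochberg adjustment over all genes at 0.05. An SE is |log2 fold change| over the root of the F statistic. The fit was tested on simulated counts. All libraries differed beyond sampling noise (chi-square per gene 18.1 or more). Alternatives were other scalings and filters, DESeq2 1.42.0, limma-voom (limma 3.58.1), each library left out, a term separating B and D from E and F, and the Y-linked share as covariate.

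The members, lists and alternatives were chosen with earlier results of these data known. All 10 members are named, with Il33 as a check. From each endothelial and partner list the 3 genes with the smallest p and the most abundant one are named, and from the other lists the 2 most abundant, some of them only in a summed level. Of genes like a member, the 5 nearest Pecam1 and some of the 3 nearest each other member are named. Counts of 76120696 reads or more per library make counting error small beside the spread between libraries.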

Additional observations from a re-analysis of the deposited data

How the results depend on the processing

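The members' log2 fold changes stayed below 0, with no member called, under DESeq2 size factors, upper-quartile factors, no filter, the filter of 1 CPM in 2 libraries, DESeq2, limma-voom, the term separating B and D from E and F and the Y-linked share as covariate. Scaled to the pan-endothelial list, Pecam1 (0.057), Vwf (0.031) and Lyve1 (0.0017) turned above 0, while the median of all genes rose to 0.26. That setting called 12 genes higher and 5 lower, none a member, with 1 member higher and 1 lower without overlap. DESeq2 called 1 gene higher, Il33.

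With 1 library left out, the log2 fold change ran from -0.51 to 0.10 for Pecam1, -0.85 to -0.01 for Car4, -0.69 to -0.0035 for Ednrb, -0.89 to -0.03 for Apln, -0.48 to -0.0011 for Aplnr, -0.70 to 0.024 for Gpihbp1, -0.62 to 0.019 for Plvap, -0.67 to 0.28 for Vwf, -0.52 to -0.10 for Gja5 and -0.37 to -0.14 for Lyve1. In these fits the lone library of a group is assumed to vary like the others. Without B the members' median was -0.005 and without E it was -0.65. The members lower without overlap ranged from 2 to 10, and 0 were higher in any of these fits. The genes called ran from 0 to 5 higher and from 0 to 12 lower, none a member. No paired analysis was possible because of labels that number no replicates, apart from the term separating B and D from E and F, which groups libraries by earlier results and not by labels. Depth was not varied in any setting. The cause of these changes was not tested.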
